A study of Homo sapiens with 3 samples.

Results

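Regulators of G protein signalling (RGS proteins) shorten signals from G protein-coupled receptors: their shared RGS domain speeds GTP hydrolysis by the alpha subunits of heterotrimeric G proteins. Islet hormone secretion is steered by such receptors, through Gs, Gi/o and Gq. The measurements below follow 7 RGS genes, chosen by name from the 36601 genes of the count tables, all 7 of which were found. RGS2, RGS4, RGS5 and RGS16 belong to the small R4 family, RGS7 and RGS9 to the R7 family, whose members work as pairs with the Gβ5 subunit, and RGS17 to the RZ family.

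The RNA came from islet-like clusters made from the established human embryonic stem line HUES8. Cells had been separated with magnetic beads on CD49a, the integrin alpha 1 subunit. The 3 groups were CD49a-positive cells, CD49a-negative cells and unsorted cells, each left to aggregate again for 7 days, dispersed with the enzyme TrypLE and sequenced as 1 droplet-based single-cell library. All 3 groups thus share the line, which is 1 genetic background, and no group has a second library.

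Cells were placed in 4 classes by their own hormone or enzyme RNA, with no RGS gene involved: TPH1-rich cells (at least 200 CPM of TPH1, the first enzyme of serotonin synthesis, and at least 3 molecules), SST-rich cells (20000 CPM of somatostatin), GCG-rich cells (20000 CPM of glucagon) and INS-rich cells (30000 CPM of insulin). A molecule here is a unique molecular identifier (UMI), and CPM is the UMIs of a gene over all UMIs of the class in a library, scaled to 1000000. The TPH1-rich class had 83 CD49a-positive, 409 CD49a-negative and 388 unsorted cells. The SST-rich class had 34, 83 and 72 cells in the same library order, the GCG-rich class 217, 448 and 391, and the INS-rich class 1492, 355 and 683. The classes are ranges of a continuous value and not proven cell types: 225 cells lay within 25% below the TPH1 limit and 163 within 25% above it, against 61 and 41 for SST, 156 and 148 for GCG and 309 and 276 for INS. FEV, a transcription factor of serotonergic cells, played no part in the limits. It stood at 719 ± 266 CPM in TPH1-rich cells and at 105 ± 33.4, 148 ± 41.4 and 102 ± 54.9 CPM in SST-rich, GCG-rich and INS-rich cells (mean ± SD over 3 libraries, as throughout). Of the 7 alpha-cell markers listed, all were higher in GCG-rich than in INS-rich cells, GCG among them (16.7% of all genes were higher). Of 5 delta-cell markers, SST among them, 4 were higher and 1 lower in SST-rich than in INS-rich cells (9.86% and 11.8% of all genes). Of 8 beta-cell markers, INS among them, 7 were lower and none higher in GCG-rich than in INS-rich cells (17.2% of all genes were lower). INS itself stood at 7143 ± 1662 CPM in TPH1-rich and 8921 ± 88.4 CPM in GCG-rich cells, against 89420 ± 5841 CPM in INS-rich cells, so insulin RNA was present in every class.

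The libraries held 4512, 2566 and 2811 barcodes (CD49a-positive, CD49a-negative, unsorted) and between 88397368 and 127119509 UMIs. Of these barcodes, 2394, 1976 and 2256 passed the filters (1000 genes or more, and no more than 20% of UMIs from mitochondria), with median depths of 48538.5, 36997 and 42361 UMIs. The CD49a-positive library lost 46.9% of its barcodes to this filter, the CD49a-negative library 23.0% and the unsorted library 19.7%. Between 2 and 6 barcodes were shared by each pair of libraries. Cells past more than 1 of the 4 limits (208, 256 and 305) were kept apart as mixed; their median depths of 62431 to 75399 UMIs exceeded those of the classes (31088 to 55958), and no doublet caller was run.

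Of the 7 genes, RGS4 was highest in GCG-rich cells, RGS5, RGS2 and RGS7 in TPH1-rich cells, RGS17 was lowest in INS-rich cells, and RGS9 hardly varied. Classes were compared inside libraries with edgeR's quasi-likelihood test on the 12 sums of UMIs, with library as a block and Benjamini-Hochberg adjustment over the 18515 genes tested. With library as a block, these p-values measure how far the differences between classes varied across the 3 libraries, which also differ in sort. The labels do not say that the libraries came from separate cultures, so that spread may be partly technical. All 7 genes passed the filter on low counts. TPH1-rich cells had 3 of the 7 genes higher and 1 lower than SST-rich cells, in a comparison in which 26.7% of all genes were called (15% higher, 11.7% lower). Against GCG-rich cells they had 3 higher and 2 lower (46.4% of all genes called, 23.4% higher and 22.9% lower), and against INS-rich cells 4 higher and 2 lower (35.3% called, 18.1% higher and 17.2% lower). SST-rich cells had 1 higher and 2 lower than GCG-rich cells (15.2% called, 7.59% higher and 7.6% lower) and 2 higher and 1 lower than INS-rich cells (21.7% called, 9.86% higher and 11.8% lower). GCG-rich cells had 2 higher and 1 lower than INS-rich cells (33.9% called, 16.7% higher and 17.2% lower). RGS16 is 1 of the 2 lower genes in TPH1-rich against GCG-rich and against INS-rich cells, and passed the filter on low counts only through its GCG-rich and INS-rich sums. With 7 genes, chosen with earlier results known, these counts are a description.

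**Figure D1:**
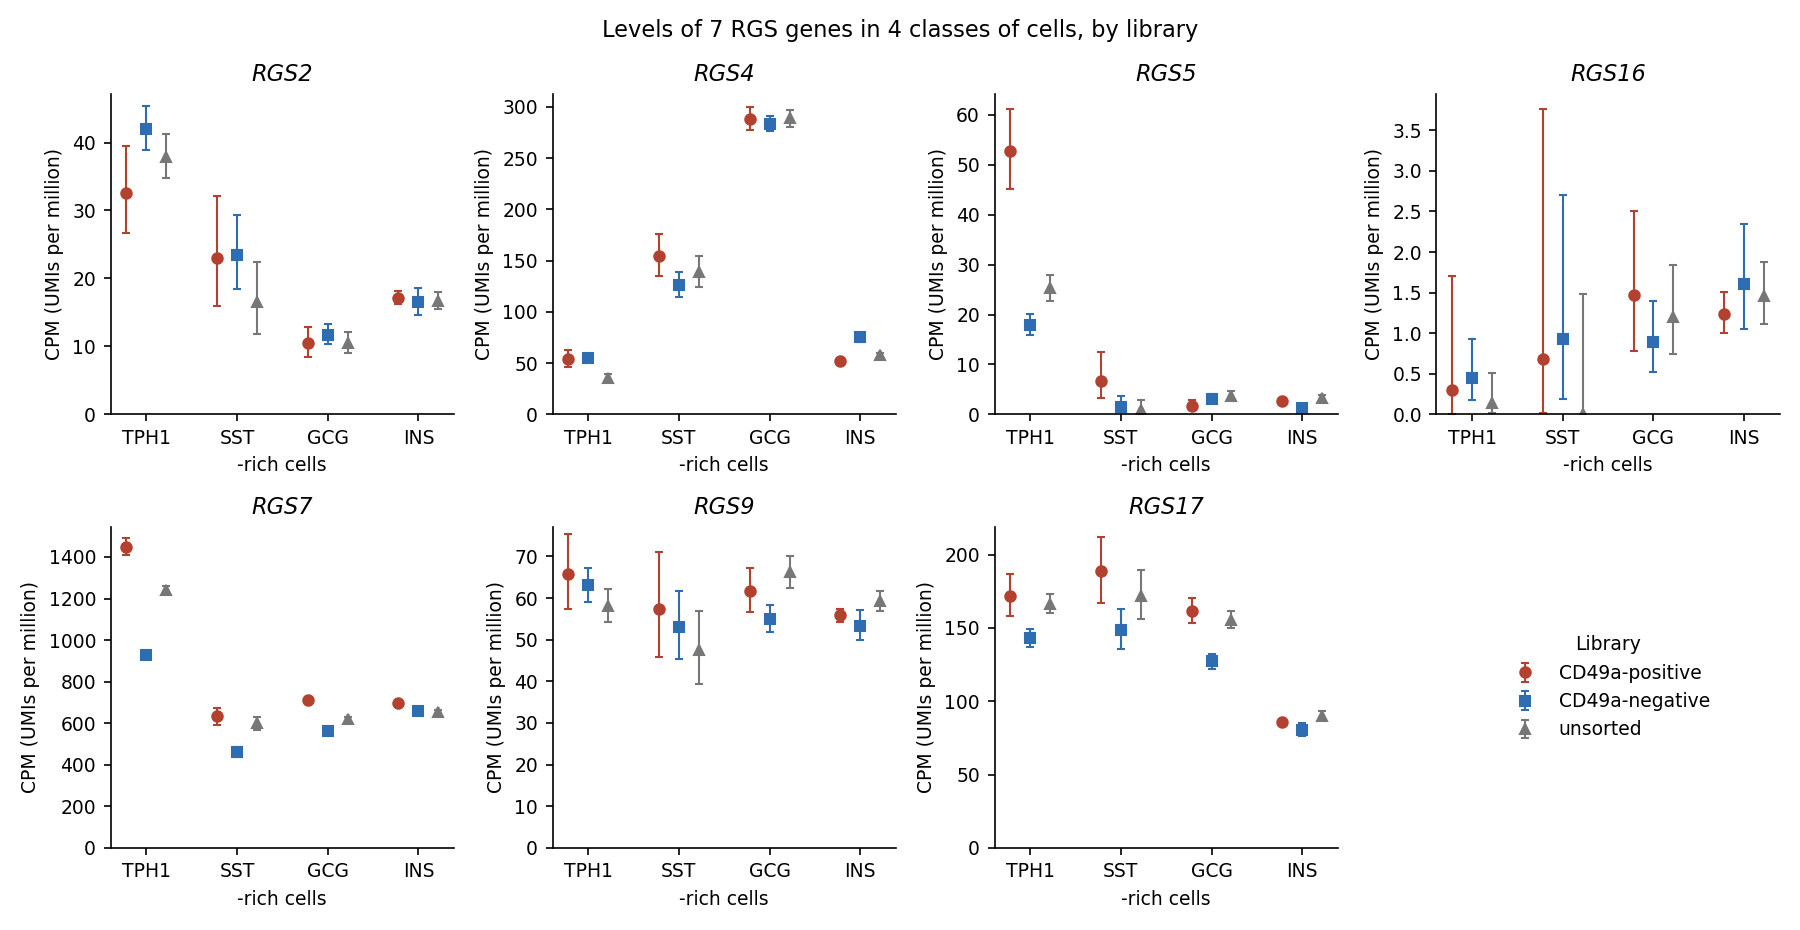
Level of each RGS gene in CPM (vertical axes, each from 0) in the 4 classes, with 1 symbol per library and lines for the exact 95% Poisson interval of the count. The GCG-rich symbols of RGS4 sit between 283 and 289 CPM, above every other class, and the TPH1-rich symbols of RGS5 between 17.9 and 52.8 CPM, above every other class.

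**Figure D2:**
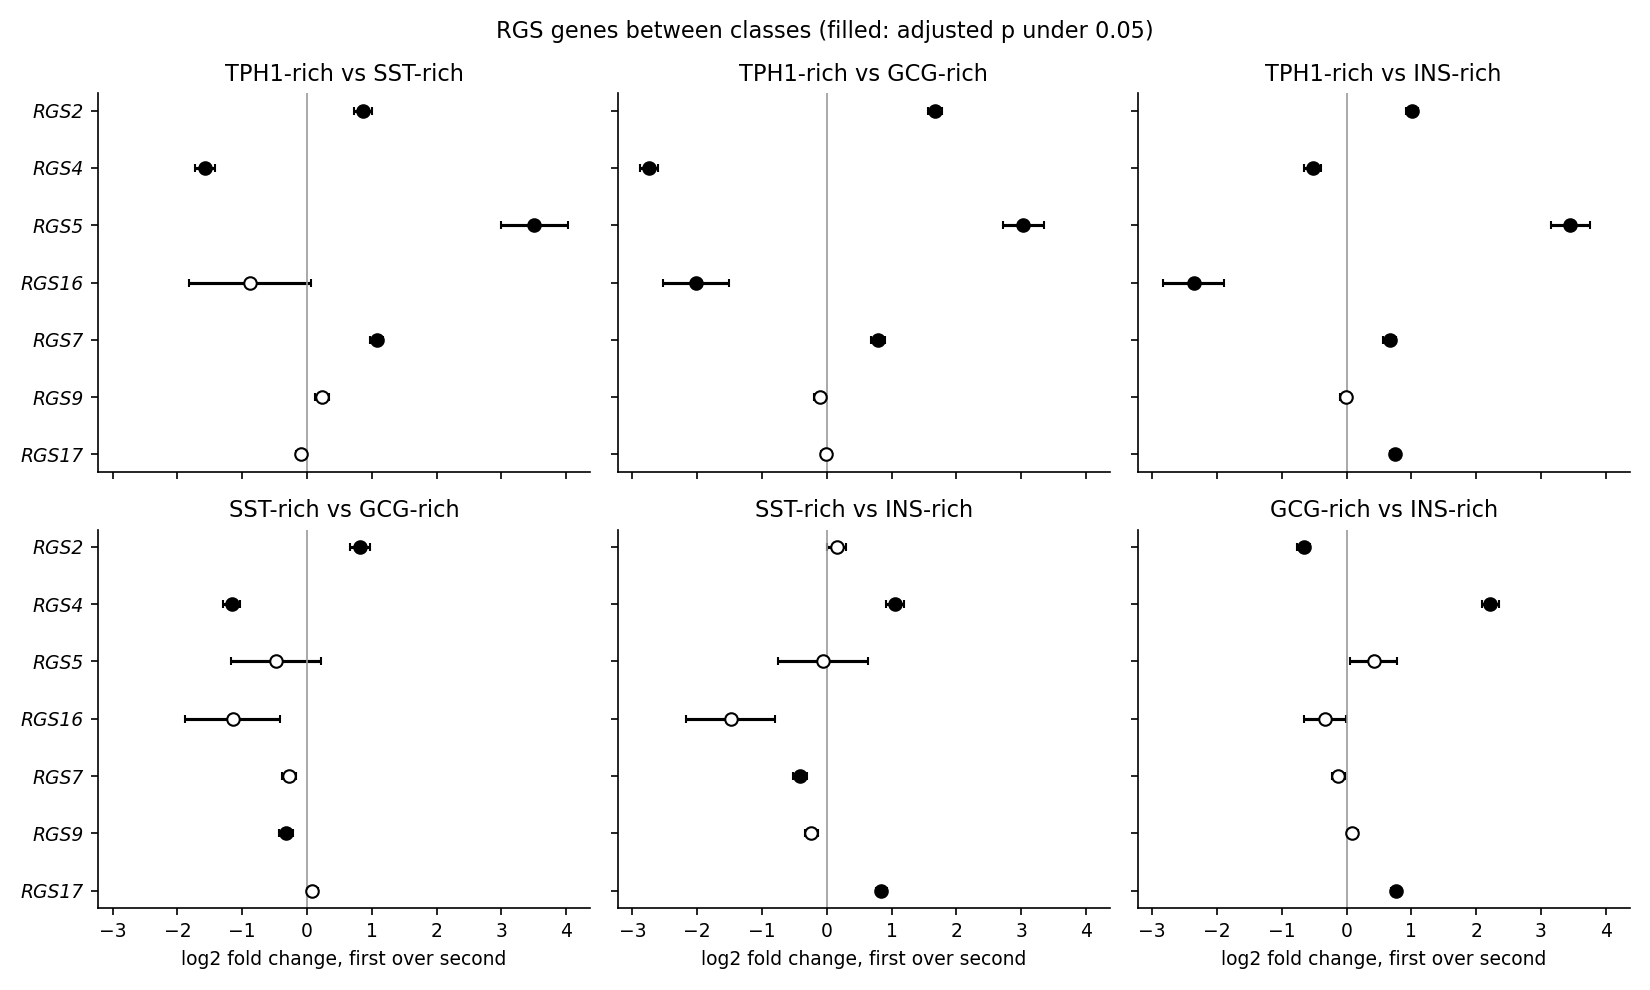
Log2 fold change of each RGS gene (horizontal axis, first class over second) in the 6 comparisons of classes, with lines for 1 standard error; filled symbols passed an adjusted p of 0.05, and those of RGS16 are no tests, for the reason given with its values. RGS4 runs from -2.74 in TPH1-rich against GCG-rich cells to 2.22 in GCG-rich against INS-rich cells, while RGS9 stays between -0.33 and 0.23 in all 6.

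RGS4 acts on Gi/o and Gq subunits, and in mouse beta cells it restrains insulin release driven by the M3 muscarinic receptor. In TPH1-rich cells it stood at 54.0, 55.0 and 35.9 CPM in the CD49a-positive, CD49a-negative and unsorted libraries. In SST-rich cells it stood at 155, 126 and 139 CPM, in GCG-rich cells at 288, 283 and 289 CPM, and in INS-rich cells at 51.6, 74.98 and 57.7 CPM. The GCG-rich values lay closest together and above all others, the SST-rich values came next without overlap, and the ranges of INS-rich and TPH1-rich cells overlapped. GCG-rich cells exceeded INS-rich cells by 2.22 ± 0.13 on the log2 scale (± SE, as for every log2 fold change; 4.64-fold; adjusted p = 3.92e-09, edgeR). TPH1-rich cells were at -2.74 ± 0.14 relative to GCG-rich cells (adjusted p = 3.63e-10), and SST-rich cells at -1.17 ± 0.14 relative to GCG-rich cells (adjusted p = 2.15e-05) but at 1.05 ± 0.14 relative to INS-rich cells (adjusted p = 4.73e-05). The smallest difference, TPH1-rich against INS-rich cells at -0.53 ± 0.14 (adjusted p = 0.00682), missed the threshold without the unsorted library (-0.37, adjusted p = 0.177) and changed sign when whole clusters took the place of the limits (0.16, adjusted p = 0.370).

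The difference also lay in how many cells held the transcript. After thinning to 10000 UMIs per cell, 81.5%, 86.0% and 85.2% of GCG-rich cells in the CD49a-positive, CD49a-negative and unsorted libraries had an RGS4 UMI (exact 95% binomial intervals from 75.4 to 89.1% over the 3). The shares were 30.9%, 38.8% and 30.1% of INS-rich cells (26.6 to 44.4%). Unthinned, the shares were 91.2%, 95.8% and 94.6% of GCG-rich cells and 61.2%, 62.8% and 65.2% of INS-rich cells, at median depths of 38025 to 39681 UMIs for GCG-rich cells and 42495 to 55958 UMIs for INS-rich cells. RGS4 in INS-rich cells came to 17.9%, 26.5% and 19.98% of its GCG-rich level in the CD49a-positive, CD49a-negative and unsorted libraries, a larger share than that of GCG itself, which came to 1.41%, 5.04% and 2.37%. Among clusters formed without any RGS gene, the GCG-led cluster 5 (664 cells) had 334 CPM of RGS4 and the neighbouring cluster 6 (575 cells) 216 CPM, while of the 5 clusters in which INS was the class marker with the highest fold, clusters 0, 2 and 7 had 39.1, 41.6 and 47.0 CPM and clusters 1 and 3 had 132 and 102 CPM. Cluster 1 was itself a mixture, with 169 INS-rich, 128 mixed and 29 GCG-rich cells among its 365.

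RGS4 lies on chromosome 1 from 163068775 to 163076802 on the plus strand (GRCh38, GENCODE release 29), and RGS5 on the same chromosome from 163111121 to 163321791 on the minus strand. These neighbours were highest in different classes, which is why 250 bases upstream of a start of each, from RefSeq on GRCh38.p14, are shown. For RGS4 the window is chr1:163069111-163069360 (plus strand), at the third of the 4 RefSeq starts, chosen because it holds both matches (the second window overlaps it and holds 1, the others none), and for RGS5 chr1:163321736-163321985 (minus strand), the first of its starts listed; both read 5′ to 3′ towards the gene. Capitals mark CGTCA, the reverse complement of the cAMP response element half-site TGACG, and the TATA box TATAAA. A search of both strands found TGACG in 21.2% and TATAAA in 10.7% of all 35116 windows of this length, and neither in the RGS5 window. The homeodomain core TAATTA (4.35% of windows) and the ETS core CCGGAA (14.5%) were in neither window. Because the RGS4 window was picked for its matches, these windows do not compare the genes, and the shares are those of windows not picked.
RGS4: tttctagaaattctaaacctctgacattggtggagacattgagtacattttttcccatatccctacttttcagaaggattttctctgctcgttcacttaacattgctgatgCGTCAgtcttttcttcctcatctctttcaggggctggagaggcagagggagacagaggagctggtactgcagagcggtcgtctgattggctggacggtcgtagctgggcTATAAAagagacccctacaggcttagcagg
RGS5: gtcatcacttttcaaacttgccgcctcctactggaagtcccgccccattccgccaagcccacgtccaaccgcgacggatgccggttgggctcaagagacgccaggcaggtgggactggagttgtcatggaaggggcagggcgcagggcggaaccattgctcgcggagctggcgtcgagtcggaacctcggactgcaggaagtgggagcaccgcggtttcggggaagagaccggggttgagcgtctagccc

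RGS5 is best known as a marker of pericytes, the contractile cells that wrap capillaries. Here it was concentrated in TPH1-rich cells, at 52.8, 17.9 and 25.3 CPM in the CD49a-positive, CD49a-negative and unsorted libraries. SST-rich cells had 6.76, 1.54 and 0.804 CPM, from 10, 5 and 2 UMIs, GCG-rich cells 1.69, 3.16 and 3.72 CPM, and INS-rich cells 2.66, 1.17 and 3.30 CPM. The TPH1-rich range did not overlap with any other, and the other 3 classes overlapped with one another. TPH1-rich cells exceeded SST-rich cells by 3.51 ± 0.52 (log2; adjusted p = 0.000104, edgeR), GCG-rich cells by 3.03 ± 0.32 (adjusted p = 1.20e-06) and INS-rich cells by 3.45 ± 0.30 (adjusted p = 2.52e-07). With cluster-based classes the log2 differences were 1.60, 2.30 and 2.19 in the same order, and all still passed (adjusted p = 8.12e-05 to 0.00751).

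Few cells carried this signal. Only 13 of 83 CD49a-positive, 33 of 409 CD49a-negative and 32 of 388 unsorted TPH1-rich cells had any RGS5 UMI (15.7%, 8.07% and 8.25%, against 4.76%, 3.66% and 6.44% of the deeper INS-rich cells). Thinned to 10000 UMIs per cell, the shares were 13.8%, 5.66% and 4.79% of TPH1-rich cells, against 0.808%, 0.946% and 1.89% of INS-rich cells. GCG-rich cells had 5.99%, 5.36% and 9.72% unthinned, the unsorted share above that of TPH1-rich cells. Thinned, they had 3.50%, 2.29% and 2.75%, and SST-rich cells 6.06%, 2.63% and 1.72%. The thinned TPH1-rich share was the highest in each library, but its exact binomial interval overlapped those of GCG-rich and SST-rich cells in each. The 6, 9 and 12 TPH1-rich cells with at least 10 UMIs held 85.5%, 73.7% and 86.9% of the RGS5 UMIs of the class in the CD49a-positive, CD49a-negative and unsorted libraries. Many of them sat together in cluster 15, singled out after its values were seen. With 62 cells (9 CD49a-positive, 23 CD49a-negative, 30 unsorted), it had 362 CPM of RGS5, against at most 11.1 CPM in any of the other 15 clusters. Its leading genes included TAC1, which encodes substance P, the peptide gene CARTPT, the proteoglycan gene VCAN and CBLN2, and it had 1503 CPM of TPH1. In it, 34 of 62 cells (54.8%) had an RGS5 UMI, and it held 25.4% of all RGS5 UMIs in kept cells, including those of the mixed and unclassed cells. The larger cluster 4 (549 cells, with FEV and CBLN1 among its leading genes) held 21.0%, with an RGS5 UMI in 72 cells (13.1%). Clusters 4 and 15 each had 17 cells with at least 10 RGS5 UMIs. Clusters 2 and 0, marked by INS, held 12.1% and 10.3% of the RGS5 UMIs.

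Pericyte and endothelial genes were scarce in cluster 15 and in the TPH1-rich class. In cluster 15 the 11 listed pericyte or mesenchymal genes, PDGFRB, ACTA2 and COL1A1 among them, summed to 5.62 CPM with 7 of them at 0, and the 4 endothelial genes were all at 0. In the whole TPH1-rich class the 11 genes summed to 8.84, 22.6 and 6.26 CPM in the CD49a-positive, CD49a-negative and unsorted libraries, against 60.8, 52.5 and 66.7 CPM in SST-rich cells, where RGS5 was low. Most of the SST-rich sum came from ABCC9 (33.9 ± 3.17 CPM) and KCNJ8 (19.5 CPM), which encode subunits of potassium channels, while ACTA2 stood at 0.371 CPM and PDGFRB at 0 there. Without cluster 15 the RGS5 differences were smaller and still passed the test: 2.46 against SST-rich cells (adjusted p = 0.0348), 1.95 against GCG-rich cells (adjusted p = 0.00547) and 2.38 against INS-rich cells (adjusted p = 0.00137). The libraries were not alike in this. Unsorted TPH1-rich cells of clusters 8, 9 and 4 had 4.06, 1.38 and 18.7 CPM, against 3.72 CPM in unsorted GCG-rich and 3.30 CPM in unsorted INS-rich cells. In the CD49a-negative library 36 of the 278 RGS5 UMIs of the TPH1-rich class lay in 2 cells of cluster 0. The gene overlaps NUF2 on the opposite strand and AL592435.1 on its own strand; AL592435.1 stood at 0.815 ± 0.220 CPM in TPH1-rich cells and 1.15 ± 0.232 CPM in INS-rich cells, and the strand setting of the counting is not given in the sources used here.

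**Figure D3:**
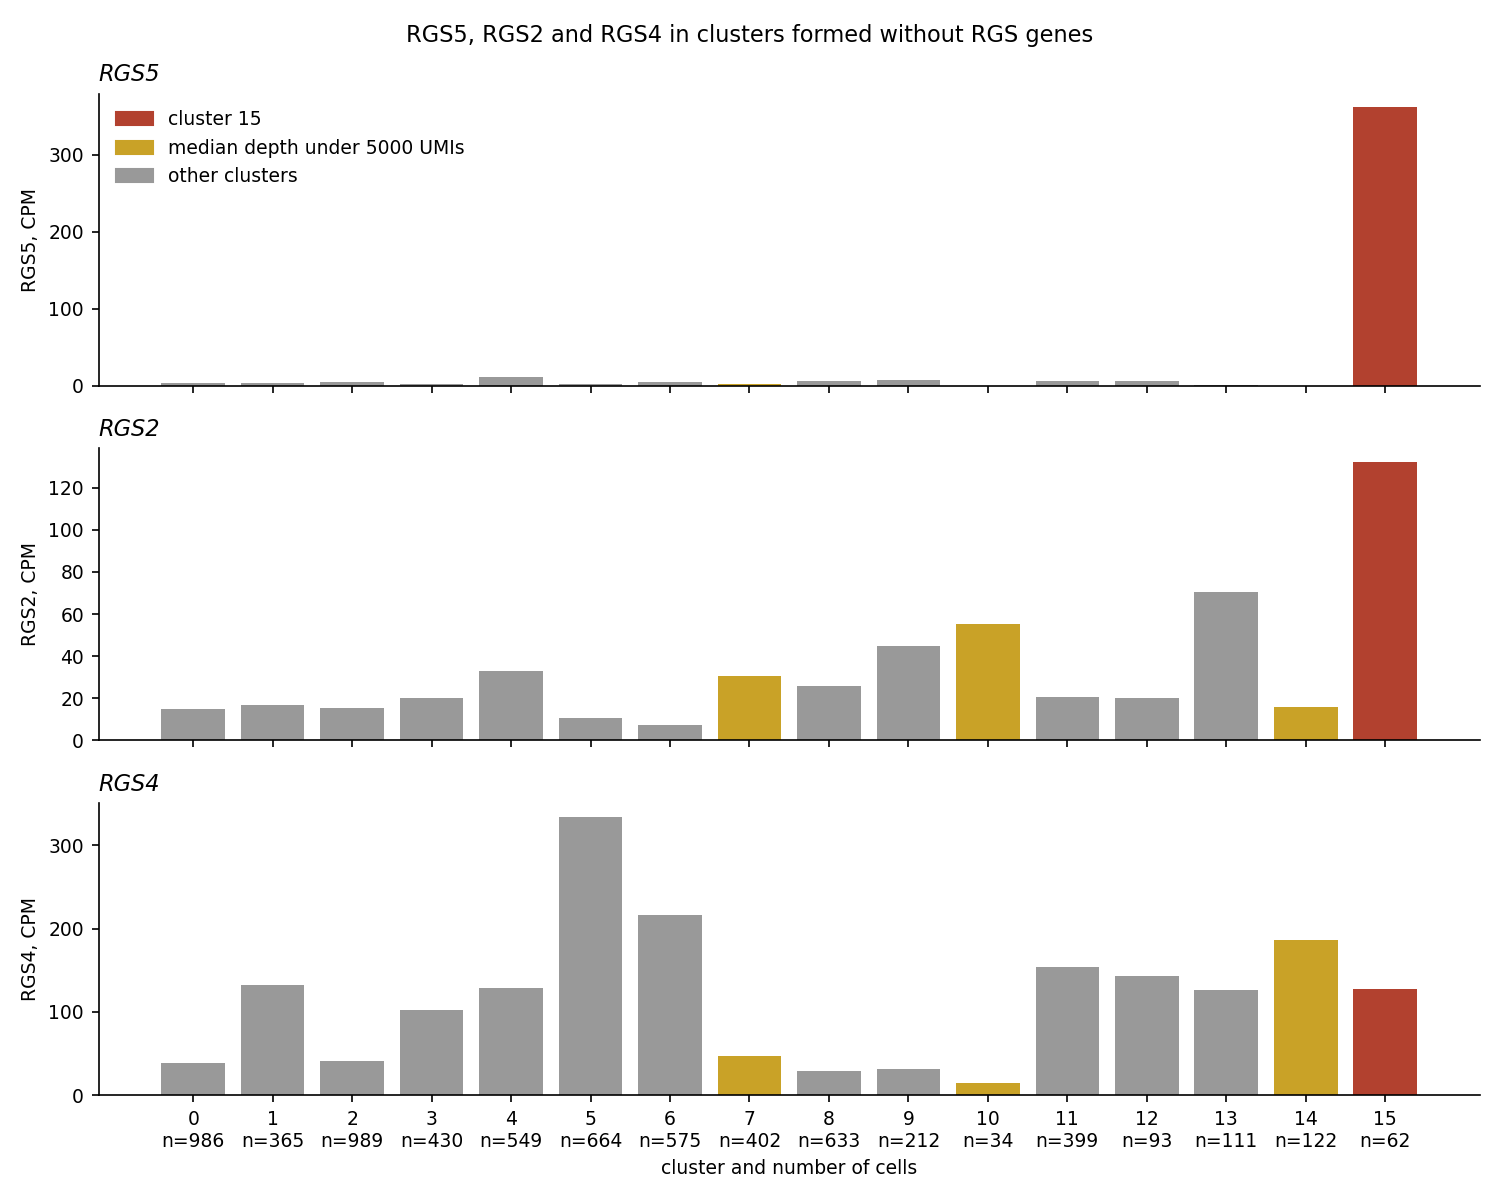
Levels in CPM (vertical axes, from 0) of RGS5, RGS2 and RGS4 over all kept cells of each of 16 clusters formed without RGS genes, with cluster numbers and cell numbers below. Cluster 15 stands out at 362 CPM for RGS5 and 132 CPM for RGS2, and cluster 5 at 334 CPM for RGS4.

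RGS2 prefers Gq subunits and is quickly induced by cAMP and calcium signals in many cells. It stood at 32.6, 42.0 and 37.8 CPM in TPH1-rich cells of the CD49a-positive, CD49a-negative and unsorted libraries, at 23.0, 23.5 and 16.5 CPM in SST-rich cells, at 10.5, 11.7 and 10.5 CPM in GCG-rich cells and at 17.2, 16.6 and 16.7 CPM in INS-rich cells. TPH1-rich cells were above and GCG-rich cells below all others, and the SST-rich and INS-rich ranges overlapped. TPH1-rich cells exceeded GCG-rich cells by 1.67 ± 0.11 (log2; adjusted p = 4.62e-09, edgeR), INS-rich cells by 1.01 ± 0.10 (adjusted p = 8.94e-07) and SST-rich cells by 0.86 ± 0.14 (adjusted p = 0.000220). GCG-rich cells were at -0.66 ± 0.11 relative to INS-rich cells (adjusted p = 0.000135), and SST-rich cells at 0.81 ± 0.15 relative to GCG-rich cells (adjusted p = 0.00147).

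Cluster 15 led for RGS2 as well, at 132 CPM, followed by cluster 13 (111 cells, with GC and ONECUT3 among its leading genes) at 70.3 CPM; 24 of the 62 cells of cluster 15 had both RGS2 and RGS5 UMIs. Other early-response genes did not share the class order of RGS2, although within classes RGS2 went weakly with them over cells. Of 13 immediate early genes such as FOS, JUN and EGR1, none was higher and 10 were lower in TPH1-rich than in INS-rich cells (18.1% of all genes were higher and 17.2% lower). Their median log2 fold change was -0.91, against 0.01 over all genes. In GCG-rich against INS-rich cells 10 were higher and 1 lower (16.7% of all genes higher and 17.2% lower), with a median of 0.69, against 0.01 over all genes. The summed level of the 13 genes was 875 to 1415 CPM in TPH1-rich, 1190 to 1504 CPM in SST-rich, 1696 to 2009 CPM in GCG-rich and 1282 to 1348 CPM in INS-rich cells. Over cells thinned to 10000 UMIs, Spearman's rho of RGS2 with this sum was 0.30, 0.09 and 0.15 in TPH1-rich cells of the CD49a-positive, CD49a-negative and unsorted libraries (80, 389 and 376 cells) and between 0.01 and 0.17 in the other classes, a description in sparse counts. A weak positive rho was not particular to RGS2. For RGS4 it was 0.27, 0.18 and 0.21 in TPH1-rich cells in the same library order and between 0.04 and 0.32 in the other classes. RGS2 lies on chromosome 1 from 192809039 to 192812283 on the plus strand. The 250 bases upstream of its RefSeq start (chr1:192808789-192809038, plus strand, GRCh38.p14) hold 1 match to the half-site on the reverse strand, in capitals.
RGS2: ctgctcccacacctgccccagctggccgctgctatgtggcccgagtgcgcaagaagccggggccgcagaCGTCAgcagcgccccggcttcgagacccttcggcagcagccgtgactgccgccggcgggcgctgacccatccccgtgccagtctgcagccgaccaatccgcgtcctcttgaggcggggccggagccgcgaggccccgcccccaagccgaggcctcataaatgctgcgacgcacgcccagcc

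RGS16 was the scarcest of the 7 in every class by the mean over libraries, although in CD49a-negative INS-rich cells RGS5 was lower. The TPH1-rich class had 1, 7 and 2 UMIs in all (0.305, 0.452 and 0.141 CPM in the CD49a-positive, CD49a-negative and unsorted libraries) and the SST-rich class 1, 3 and 0 UMIs, the last allowing up to 1.21 CPM. GCG-rich cells had 1.47, 0.888 and 1.20 CPM and INS-rich cells 1.23, 1.60 and 1.46 CPM. The TPH1-rich point values lay below those of GCG-rich and INS-rich cells, but so few UMIs do not settle this order in every library. The exact Poisson interval of the CD49a-positive TPH1-rich value reached 1.70 CPM, above every GCG-rich and INS-rich value. In the CD49a-negative library it reached 0.931 CPM, above the GCG-rich but below the INS-rich value there. In the unsorted library it reached 0.508 CPM, below both. RGS16 passed the filter on low counts only through its GCG-rich and INS-rich sums, so its fitted differences are not given as tests. In the unsorted library 1 INS-rich cell held 43.3% of the RGS16 UMIs of the class, and in the CD49a-positive library 1 cell held 18%. In mice Rgs16 marks endocrine progenitors of the embryonic pancreas; here its highest cluster was cluster 7, led by IAPP and ATF3, at 11.1 CPM from 27 UMIs in 8 cells, 22 of these UMIs in the CD49a-positive library. Cluster 7 also had the highest summed immediate early level of the 16 clusters, 2544 CPM.

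RGS7 is a neuronal member of the R7 family and dampens Gi/o signals. It stood at 1449.8, 927 and 1239.8 CPM in TPH1-rich cells of the CD49a-positive, CD49a-negative and unsorted libraries, at 633, 459.6 and 599 CPM in SST-rich cells, at 710.0, 560.3 and 620.4 CPM in GCG-rich cells and at 698, 661 and 655 CPM in INS-rich cells. The TPH1-rich values lay above the rest in every library, and the other 3 classes overlapped. The clusters in which TPH1 was the class marker with the highest fold were not alike. Cluster 8 had 1541 CPM of RGS7 and cluster 13 had 949 CPM, while clusters 4, 9, 10 and 15 had 499, 574, 161 and 673 CPM. Cluster 2, marked by INS, had 1071 CPM and cluster 6, marked by GCG, had 953 CPM. TPH1-rich cells exceeded SST-rich cells by 1.07 ± 0.11 (log2; adjusted p = 2.00e-06, edgeR), GCG-rich cells by 0.79 ± 0.11 (adjusted p = 1.54e-05) and INS-rich cells by 0.66 ± 0.10 (adjusted p = 0.000129). The last was 0.19 with cluster-based classes (adjusted p = 0.0849). SST-rich cells were at -0.41 ± 0.11 relative to INS-rich cells (adjusted p = 0.0115), a difference that missed the threshold without the CD49a-negative library (-0.27, adjusted p = 0.0993), without the unsorted library (-0.47, adjusted p = 0.120) and with no library block (-0.40, adjusted p = 0.150).

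RGS7 spans 581.716 kb of chromosome 1 (240775515 to 241357230, minus strand), and the sources used here do not say whether intronic reads were counted. Its level varied with that of MALAT1, a long RNA kept in the nucleus. Over 16 clusters Pearson's r of the log2 levels was 0.79 and Spearman's rho 0.79, and over the 13 clusters with a median depth of at least 5000 UMIs they were 0.74 and 0.63; the clusters share libraries, and these values are descriptions. In the shallow clusters 7, 10 and 14 RGS7 stood at 70.9, 161 and 65.5 CPM and MALAT1 at 2665, 771 and 5006 CPM, against 294 to 1541 CPM of RGS7 and 5775 to 24466 CPM of MALAT1 elsewhere. Between classes, TPH1-rich cells exceeded INS-rich cells by 0.40 ± 0.12 in MALAT1 (adjusted p = 0.0160, edgeR), and SST-rich cells did so by 0.42 ± 0.12 (adjusted p = 0.0194). RGS7 was higher in TPH1-rich and lower in SST-rich than in INS-rich cells. Both of these RGS7 differences missed the threshold under some settings, as given above. The part of nuclear RNA content in the RGS7 differences was not tested.

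**Figure D4:**
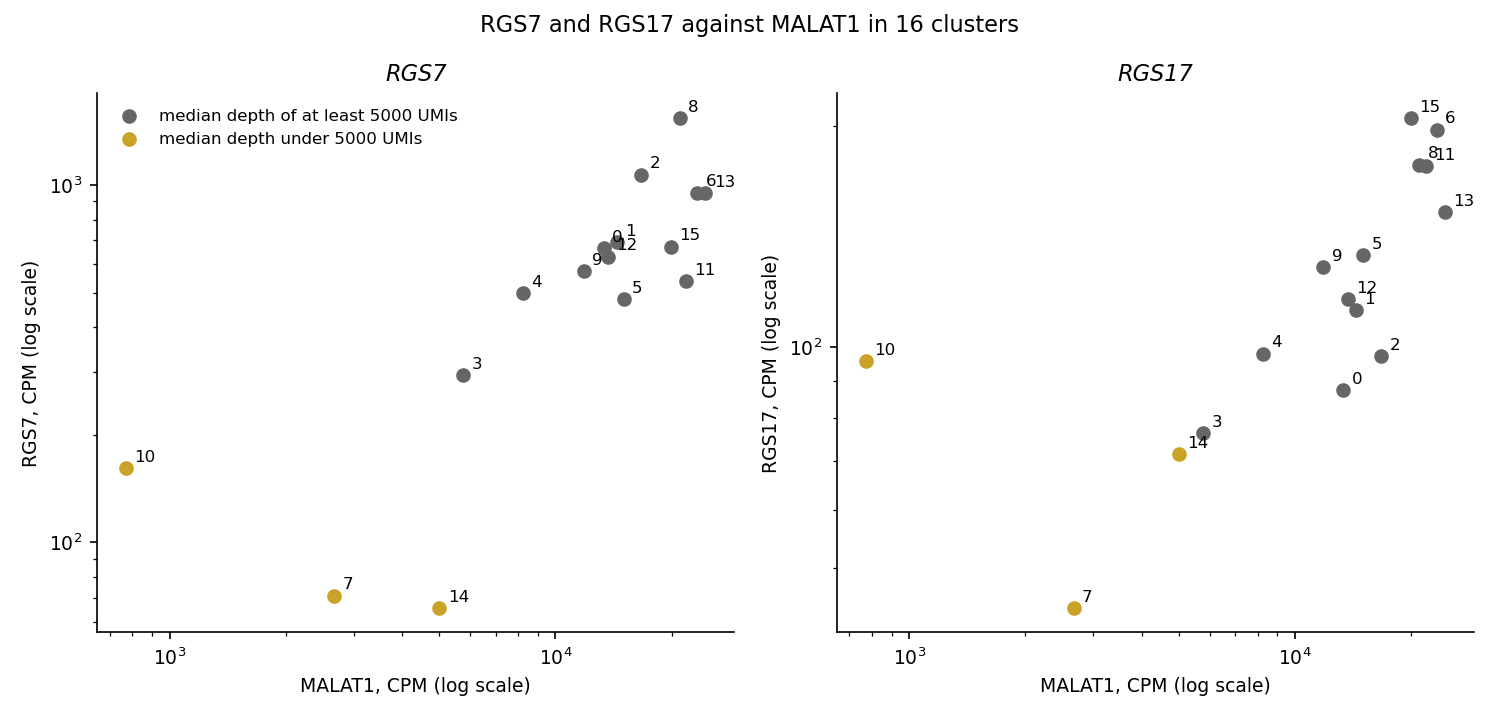
RGS7 (left) and RGS17 (right) against MALAT1 in 16 clusters, both axes in CPM on a log scale, with cluster numbers beside the points; gold points are the 3 clusters with a median depth under 5000 UMIs. Cluster 8 is highest for RGS7 at 1541 CPM, and cluster 7 lowest for RGS17 at 44.1 CPM.

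The genes whose products assemble with R7 proteins shifted between classes in different directions. Of 5 listed, 4 could be tested. RGS7BP, the membrane anchor of R7 complexes, was at 19.6 ± 3.54 CPM in TPH1-rich cells, against 4.86 ± 3.55 CPM in SST-rich, 1.13 ± 0.733 CPM in GCG-rich and 2.23 ± 0.379 CPM in INS-rich cells, a difference from INS-rich cells of 2.91 ± 0.27 (log2; adjusted p = 4.64e-07). GNB5, which encodes the obligate Gβ5 partner, was at 57.1 ± 7.18 CPM in TPH1-rich and 38.1 ± 1.07 CPM in INS-rich cells (0.46 ± 0.09; adjusted p = 0.000976). GPR158, an orphan receptor that binds RGS7, went the other way, at 57.8 ± 22.1 CPM in TPH1-rich and 126 ± 12.6 CPM in INS-rich cells (-1.36 ± 0.14; adjusted p = 1.09e-06). In all, 2 of the 4 were higher and 2 lower in TPH1-rich than in INS-rich cells, where 18.1% of all genes were higher and 17.2% lower.

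RGS9, known from photoreceptors and striatal neurons, was the most even of the 7. It stood at 65.9, 63.0 and 58.2 CPM in TPH1-rich cells of the CD49a-positive, CD49a-negative and unsorted libraries, at 57.5, 53.1 and 47.4 CPM in SST-rich cells, at 61.8, 54.9 and 66.2 CPM in GCG-rich cells and at 55.8, 53.4 and 59.3 CPM in INS-rich cells. All neighbouring ranges overlapped. SST-rich cells were at -0.33 ± 0.10 relative to GCG-rich cells (log2; adjusted p = 0.0463, edgeR), and this single call missed the threshold under 10 of 14 other settings, among them the loss of any 1 library (adjusted p = 0.0693 to 0.563). It lies on chromosome 17 from 65100812 to 65227703 on the plus strand.

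RGS17, a partner of Gi/o, Gz and Gq subunits, set INS-rich cells apart from the other 3 classes. It stood at 172, 143 and 167 CPM in TPH1-rich cells of the CD49a-positive, CD49a-negative and unsorted libraries, at 189, 149 and 172 CPM in SST-rich cells, at 162, 127 and 155 CPM in GCG-rich cells and at 85.5, 80.7 and 90.2 CPM in INS-rich cells. No INS-rich value reached the lowest value of another class, and the other 3 classes overlapped. The differences from INS-rich cells were 0.75 ± 0.08 in TPH1-rich cells (log2; adjusted p = 1.64e-06, edgeR), 0.84 ± 0.08 in SST-rich cells (adjusted p = 2.05e-06) and 0.76 ± 0.08 in GCG-rich cells (adjusted p = 1.07e-06). The gene lies on chromosome 6 from 153004459 to 153131249 on the minus strand. Its level also went with MALAT1 over clusters (r = 0.69 and rho = 0.84 over 16, 0.81 and 0.76 over 13), and MALAT1 was at 18305 ± 2387, 18271 ± 1063 and 16618 ± 1263 CPM in TPH1-rich, SST-rich and GCG-rich cells and at 12349 ± 347 CPM in INS-rich cells.

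CPM values use total UMIs, while the tests scale by trimmed means (TMM). Scaled by totals, the median gene stood at 0.17 in TPH1-rich against INS-rich cells, at 0.13 in SST-rich against INS-rich cells and at 0.11 in TPH1-rich against GCG-rich cells (log2). By trimmed means it stood at 0.01, -0.01 and -0.02, and the changes given are relative to those.

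Among the 14 other RGS genes listed, 8 had enough UMIs to test. TPH1-rich cells had 4 higher and 2 lower than INS-rich cells (35.3% of all genes called), and none higher and 3 lower than SST-rich cells (26.7% called). RGS6, the R7 family member closest to RGS7 in sequence, was at 88.2 ± 39.5 CPM in TPH1-rich cells, against 288 ± 40.7, 250.5 ± 33.2 and 300.2 ± 48.9 CPM in SST-rich, GCG-rich and INS-rich cells (TPH1-rich against INS-rich -2.01 ± 0.14 on the log2 scale; adjusted p = 1.68e-08), a direction opposite to that of RGS7. RGS11, also of the R7 family, was at 22.7 ± 5.82 CPM in TPH1-rich and 14.5 ± 3.52 CPM in INS-rich cells (0.53 ± 0.12; adjusted p = 0.00224). RGS3, an R4 gene, was highest in SST-rich cells at 31.1 ± 5.37 CPM, against 9.42 ± 1.21 CPM in INS-rich cells (1.59 ± 0.17; adjusted p = 4.93e-06).

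Some genes of G protein alpha subunits and receptors also differed between classes. GNAQ, the Gq alpha subunit, was at 428 ± 66.7 CPM in TPH1-rich and 261 ± 10.0 CPM in INS-rich cells (0.54 ± 0.09; adjusted p = 0.000215). Of the 3 Gq/11 genes tested 2 were higher and 1 lower there, where 18.1% of all genes were higher and 17.2% lower. Of the 5 Gi/o genes tested, only GNAO1 was called between these classes (35.3% of all genes called), at 233 ± 27.2 CPM in TPH1-rich and 173 ± 8.42 CPM in INS-rich cells (0.26 ± 0.08; adjusted p = 0.0195). GNAS, the Gs alpha subunit, was at 2131 ± 287 CPM in TPH1-rich and 5269 ± 386 CPM in INS-rich cells (-1.47 ± 0.12; adjusted p = 1.41e-07). Of 22 receptors listed, 17 were tested, and GCG-rich cells had 3 higher and 9 lower than INS-rich cells (33.9% of all genes called, 16.7% higher and 17.2% lower). SSTR2, the somatostatin receptor 2 gene, was at 385 ± 18.3 CPM in GCG-rich and 94.9 ± 29.4 CPM in INS-rich cells (2.04 ± 0.13; adjusted p = 8.19e-09). TPH1-rich cells had 5 higher and 7 lower receptors than INS-rich cells (35.3% of all genes called), with the M3 muscarinic receptor gene CHRM3 at 31.6 ± 15.8 CPM in TPH1-rich and 6.37 ± 0.774 CPM in INS-rich cells (2.05 ± 0.19; adjusted p = 4.77e-07).

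The sorted libraries were compared within each class, with no test, since each group had 1 library. The fold is the ratio of CPM with an exact conditional binomial 95% interval, which like all such intervals here covers counting error only; a gene needed at least 50 UMIs over both libraries. In TPH1-rich cells 1 of 6 eligible RGS genes was at least 2-fold apart between the CD49a-positive and CD49a-negative libraries (7.51% of all eligible genes were, 3.04% higher and 4.46% lower). In INS-rich cells it was 1 of 7 (2.11% of all, 1.19% higher and 0.916% lower). None was among 5 in SST-rich cells (2.59% of all, 1.31% higher and 1.28% lower) and none among 6 in GCG-rich cells (1.69% of all, 0.679% higher and 1.01% lower).

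RGS5 was the gene past 2-fold in both. In TPH1-rich cells the CD49a-positive library had 2.94 times the CPM of the CD49a-negative library (2.42 to 3.57), from 173 and 278 UMIs, and in INS-rich cells 2.27 times (1.42 to 3.84), from 215 and 19 UMIs. In GCG-rich cells the ratio was 0.536 (0.284 to 0.951), from 15 and 64 UMIs. With 10 CPM added to both sides the INS-rich fold was 1.13, and with the class limits halved the GCG-rich fold was 1.62. In INS-rich cells the CD49a-positive library was not above the unsorted one, at 0.804 times its CPM (0.646 to 1.005). These ratios rest on few cells. In INS-rich cells 6 CD49a-positive cells held 50.7% of that library's RGS5 UMIs, and in GCG-rich cells 2 CD49a-negative cells held 60.9%. Inside TPH1-rich cells, cluster 15 held 23.7%, 50.7% and 80.2% of RGS5 UMIs in the CD49a-positive, CD49a-negative and unsorted libraries. In the CD49a-positive library the largest share, 48.0%, lay in cluster 8. The 38 TPH1-rich cells of that cluster had 57.2 CPM together, against 3.36 and 4.06 CPM in the CD49a-negative and unsorted libraries. Of all 83 CD49a-positive TPH1-rich cells, only 13 had any RGS5 UMI. Without cluster 15 the CD49a-positive to CD49a-negative fold in TPH1-rich cells was 4.57.

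RGS7 was higher in the CD49a-positive library in TPH1-rich, SST-rich and GCG-rich cells under every setting run, and in INS-rich cells by a margin that turned below 1 with cells weighted equally (0.957) or with the limits halved (0.974). It had folds over the CD49a-negative library of 1.56 (1.51 to 1.62) in TPH1-rich, 1.38 (1.27 to 1.496) in SST-rich, 1.27 (1.23 to 1.31) in GCG-rich and 1.06 (1.03 to 1.08) in INS-rich cells. In TPH1-rich cells of cluster 8 alone it stood at 1660.02, 1548 and 1698 CPM in the CD49a-positive, CD49a-negative and unsorted libraries, a narrower spread than in the class as a whole. The RGS7-poorer cluster 9 held 10.8%, 25.7% and 18.6% of the TPH1-rich cells, and RGS7 there stood at 863, 547 and 614 CPM. In TPH1-rich cells of clusters 4, 13 and 15 RGS7 was at 830, 1582 and 1453 CPM in the CD49a-positive library, from 3, 6 and 5 cells. In the CD49a-negative library it was at 485, 978 and 552 CPM there. The part of cluster make-up in the RGS7 fold was not tested. RGS17 folds were 1.20 (1.09 to 1.32), 1.27 (1.09 to 1.47), 1.27 (1.19 to 1.36) and 1.06 (0.999 to 1.13) in TPH1-rich, SST-rich, GCG-rich and INS-rich cells; the SST-rich fold was 0.969 with the limits doubled.

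RGS4 was level between the sorted libraries in GCG-rich cells, with a fold of 1.02 (0.970 to 1.07), and in INS-rich cells was lower in the CD49a-positive library, with a fold of 0.688 (0.645 to 0.734). Over all kept cells of a cluster, INS-rich or not, the CD49a-positive library was also below the CD49a-negative one in 4 of the 5 clusters marked by INS. The levels were 39.4 and 50.9 CPM in cluster 0, 131 and 149 CPM in cluster 1, 40.4 and 46.1 CPM in cluster 2 and 86.7 and 140.0 CPM in cluster 3. Clusters 1 and 3 held 128 and 101 mixed cells. In the shallow cluster 7 the CD49a-positive library was above, at 43.7 and 37.1 CPM from 59 and 13 UMIs. GCG RNA in INS-rich cells moved the same way, at 1131 CPM in the CD49a-positive, 3795 CPM in the CD49a-negative and 2072 CPM in the unsorted library; its part in the RGS4 difference was not tested. RGS2 had a fold of 0.777 (0.627 to 0.954) in TPH1-rich cells and intervals that included 1 in the other 3 classes.

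**Figure D5:**
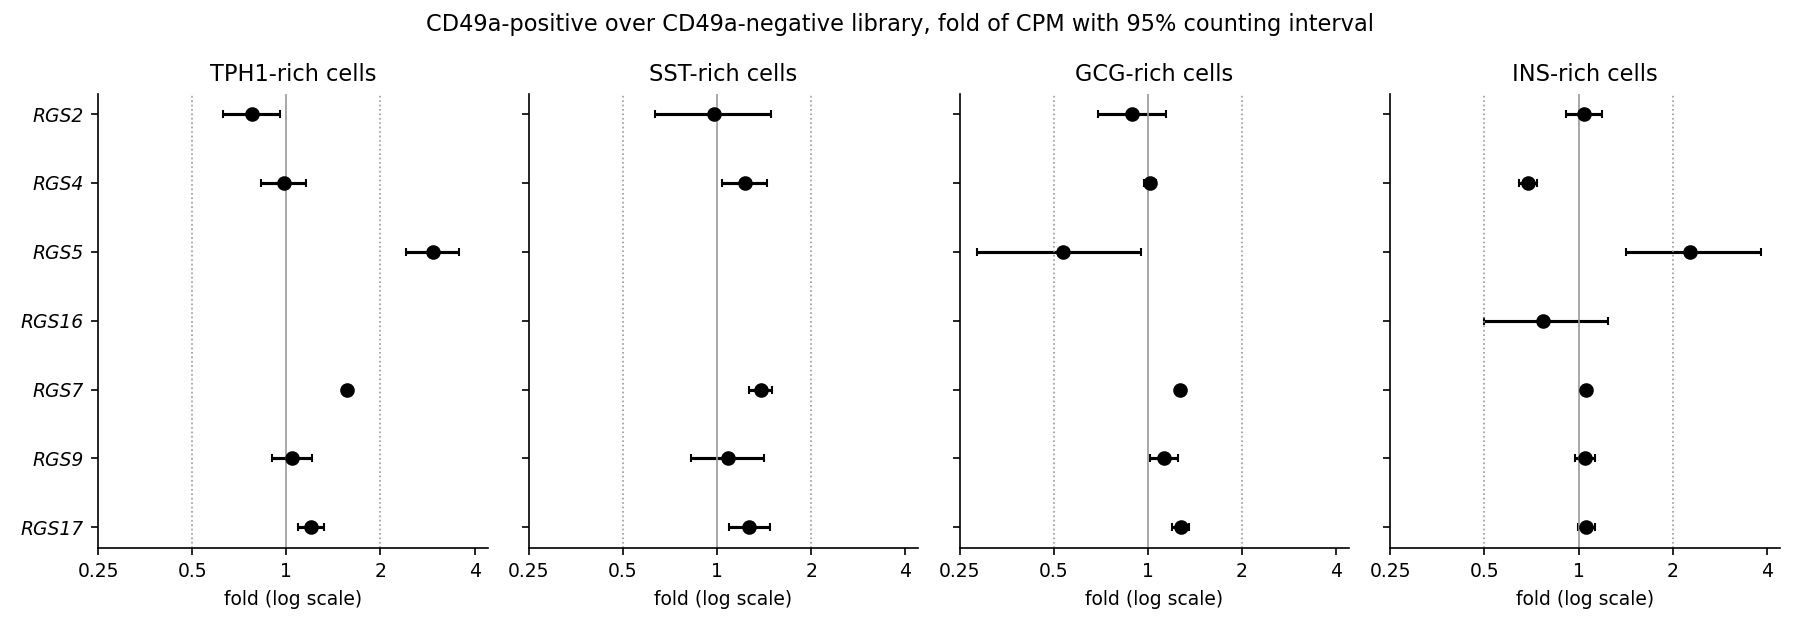
Fold of CPM, CD49a-positive over CD49a-negative library, for each RGS gene with at least 50 UMIs over both libraries (horizontal axis, log scale), in the 4 classes, with lines for the 95% counting interval; dotted lines mark 0.5 and 2. RGS5 lies at 2.94 in TPH1-rich and 2.27 in INS-rich cells and at 0.536 in GCG-rich cells, and RGS16 is plotted only in INS-rich cells.

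The genes most alike in pattern were sought by Pearson's r of log2(CPM + 1) over the 12 sums, among 9225 genes that reached 20 CPM in 1 of them; the sums share libraries, and r is a description. RGS4 was closest to TMEM45B (r = 0.98), IRX1 (0.98), an alpha-cell transcription factor, and CD55 (0.98). IRX1 stood at 22.2, 64.9, 127 and 37.9 CPM on average in TPH1-rich, SST-rich, GCG-rich and INS-rich cells, the same order of classes as RGS4. The genes closest to RGS5 included GABPB1 (r = 0.96) and CSTF3 (0.95). RGS2 was closest to NAP1L3 (0.99), RTN3 (0.98) and RHOU (0.98), RGS7 to VPS41 (0.99), CCDC91 (0.98) and AC233296.1 (0.98), and RGS17 to MALAT1 (0.98), SMAD5 (0.96) and FRMD4B (0.96). For the even RGS9 and the scarce RGS16 the closest genes were CENPC (0.86) and THRB (0.91).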

How the data were processed

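Per the submitters' processing notes, the authors used Cell Ranger 7.1.0 and GRCh38, and the deposited values are raw UMI counts, checked to be whole numbers. Filters of 1000 genes or more and no more than 20% mitochondrial UMIs decided which barcodes stayed, and UMIs were summed by class within each library. The members, lists and limits were chosen with earlier results of these data known. Sums were tested with edgeR 4.0.16 in R 4.3.3 (glmQLFit and glmQLFTest, class plus library, TMM, filterByExpr) and called at an adjusted p under 0.05. The fit was tested on simulated data. DESeq2 1.42.0 was an alternative. Clusters came from scanpy 1.11.5 (2000 variable genes without any RGS gene, 30 components, 20 neighbours, Leiden resolution 1, seed 0). Named genes were the 7 RGS genes, the 3 most alike to each and up to 4 called genes per list and comparison; cluster leaders and overlapping genes were named after their values were seen, and some genes that the rule names are not reported here. Depth was 88397368 to 127119509 UMIs per library, and a count of 0 allows 3 UMIs. Intervals are exact Poisson on levels and Clopper-Pearson on shares. Alternatives changed scaling, filters, limits, classes, block and libraries. Settings without cluster 15, without shallow clusters and without deep cells were chosen after seeing the data. Positions came from GENCODE release 29, matched by gene identifier, which may not be the release behind the counts.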

Additional observations from a re-analysis of the deposited data

Results flagged for a closer look

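RGS5 differed between the sorted libraries in opposite directions in different classes, and the difference between classes was not tested, with 1 library per group. The CD49a-positive over CD49a-negative fold was 2.94 in TPH1-rich cells and 2.27 in INS-rich cells, but 0.536 in GCG-rich cells. The directions rest on few UMIs: the GCG-rich fold came from 15 and 64 UMIs and was 1.62 with the class limits halved, and the INS-rich fold was 1.13 with 10 CPM added. RGS4 did likewise, with a fold of 1.23 in SST-rich cells (1.04 to 1.44) and 0.688 in INS-rich cells, again with no test of the difference. RGS4 was also present in the barcodes removed by the filters, which no comparison used: the CD49a-positive library had 249 UMIs there (52.5 CPM) and the unsorted library 178 (40.7 CPM), a fold of 1.29 (1.06 to 1.57).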

How the results depend on the processing

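Of 42 comparisons of an RGS gene between classes, 24 passed the threshold, and 19 of these passed under all 14 other settings. RGS16 in TPH1-rich against GCG-rich cells is among the 24, and RGS16 in TPH1-rich against INS-rich cells is among both the 24 and the 19. Neither counts as a test, since RGS16 passed the filter on low counts only through its GCG-rich and INS-rich sums. RGS4 in TPH1-rich against INS-rich cells turned to 0.16 with cluster-based classes; the cause was not tested. Genes called numbered 4944 in TPH1-rich against SST-rich cells (2306 to 4707 with 1 library left out), 8587 against GCG-rich (4768 to 8405) and 6540 against INS-rich (3038 to 6109). They numbered 2812 in SST-rich against GCG-rich cells (1241 to 2599; 1781 with no library block, 4909 with cluster-based classes), 4014 against INS-rich (1876 to 3624; 7218 with cluster-based classes), and 6278 in GCG-rich against INS-rich cells (3364 to 5689). Each lowest value was that without the unsorted library, and fewer libraries enter those fits.

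Genes at least 2-fold apart between the CD49a-positive and CD49a-negative libraries numbered 1043 in TPH1-rich cells (154 with 10 CPM added, 2759 at a minimum of 10 UMIs, 469 with limits doubled) and 264 in SST-rich cells (66 with 10 CPM added, 474 with cells weighted equally, 1464 at 10 UMIs). They numbered 249 in GCG-rich cells (8 with 10 CPM added, 90 with 1 CPM added, 1316 at 10 UMIs, 165 without deep cells) and 371 in INS-rich cells (11 with 10 CPM added, 73 with 1 CPM added, 584 with cells weighted equally, 1807 at 10 UMIs). An added constant shrinks every ratio of low genes, and a lower minimum admits more of them. No paired analysis was possible because each group has 1 library; library was the block of the class comparisons. RGS16, with 0 to 7 UMIs per library in TPH1-rich and SST-rich cells, was limited by depth.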
